A study of Mus musculus with 8 samples.

Results

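Skeletal muscle genes were followed in dissected olfactory mucosa of newborn mice. The genes were Acta1, Myh3, Myh8, Tnnt3, Ckm, Mylpf and Actn3. They were taken as rows whose only gene symbol was 1 of these names, because their levels in these samples were thought to follow how much neighbouring tissue came along with the mucosa. All 7 genes were found, in 7 rows of the 21789 rows with 1 gene symbol. The genes were chosen by their log2 levels across these 8 samples, so the levels in each sample are given as a description.

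Each of 8 samples of olfactory mucosa from postnatal day 1 mice, of a mixed 129 x C57BL/6J background, was measured on a GeneChip Mouse Gene 1.0 ST array. The number of arrays limits the precision. The Emx2 knockout group held 4 samples of genotype 123Cre:Emx2(fl/fl). The control group held 4 littermate samples, of which replicates 1 and 4 were 123Cre:Emx2(fl/+) and replicates 2 and 3 were Emx2(fl/fl) without Cre. The 123Cre transgene starts to act in immature olfactory sensory neurons (OSNs), where it was used to delete Emx2, a homeodomain transcription factor gene. Whether it acts in muscle fibres was not tested. All values are log2 levels, and all differences are knockout minus control.

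Skeletal muscle fibres are packed with sarcomeres, in which myosin thick filaments pull on actin thin filaments anchored at the Z-disc. Newborn muscle uses embryonic and perinatal myosin heavy chains, which give way to adult isoforms as the fibres mature. The olfactory mucosa is an epithelium with its connective tissue, and muscle, bone, cartilage, tooth germs and skin lie around the nasal cavity.

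Promoter sequence was looked at because genes used by the same fibres can share upstream elements. RefSeq (GRCm38.p6) gave a window upstream of the start for 5 of the 7 genes, and the 250 bases before each tabled start were searched. Of these bases, 27 for Myh3 and all 250 for Mylpf lie inside the annotated span of the gene itself. The E-box CANNTG, bound by MyoD-family factors, occurred in 5 of 5 windows on either strand, and in 66.2% of all 32851 promoter windows. TATAA, also searched on both strands, occurred in 4 of 5 windows and in 22.8% of all windows. The CArG box, bound by serum response factor, occurred in 1 of 5 windows and in 1.47% of all windows. The MEF2 motif occurred in 1 of 5 windows and in 2.92% of all windows. The 3 windows printed were chosen because they hold the CArG box (Acta1), the MEF2 motif (Myh8) and the promoter of the only gene whose groups did not overlap (Ckm). They cover chr8:123894776-123895025 on the minus strand, chr11:67276874-67277123 on the plus strand and chr7:19410844-19411093 on the plus strand. Each is written 5′ to 3′ and ends at the base before the start. Capitals mark the motif matches.
Acta1: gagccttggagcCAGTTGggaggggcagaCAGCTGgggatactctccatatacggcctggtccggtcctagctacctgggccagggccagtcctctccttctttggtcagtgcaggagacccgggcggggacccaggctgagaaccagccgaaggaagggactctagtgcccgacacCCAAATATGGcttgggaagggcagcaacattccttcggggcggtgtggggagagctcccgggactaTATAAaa
Myh8: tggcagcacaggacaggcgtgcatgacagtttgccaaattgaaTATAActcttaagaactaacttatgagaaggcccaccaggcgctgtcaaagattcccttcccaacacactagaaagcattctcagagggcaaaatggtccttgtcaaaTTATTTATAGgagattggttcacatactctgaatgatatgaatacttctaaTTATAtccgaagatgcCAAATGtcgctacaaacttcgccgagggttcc
Ckm: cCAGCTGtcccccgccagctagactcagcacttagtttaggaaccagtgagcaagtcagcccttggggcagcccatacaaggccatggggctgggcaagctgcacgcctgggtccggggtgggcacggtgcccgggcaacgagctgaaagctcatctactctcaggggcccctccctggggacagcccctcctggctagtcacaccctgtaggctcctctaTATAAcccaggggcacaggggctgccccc
The CArG box of Acta1 began 73 bases before the start, and the MEF2 motif of Myh8 began 99 bases before it. The TATAA of Ckm began 29 bases before its start. A match is a run of letters and was not measured as a bound site.

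The targeted gene was checked first. Emx2 read 9.80, 9.86, 10.01 and 9.93 in knockout samples and 10.80, 10.86, 11.0 and 10.72 in control samples, a difference of -0.94 (SE 0.0817, adjusted p = 0.0014 by limma). Knockout replicate 2 stood apart over all rows, with a mean correlation to the other arrays of 0.978 and an array weight of 0.17. The other arrays had mean correlations of 0.987 to 0.990. Of the 7 muscle genes, 4 lay above the level that the dimmest 30% of rows did not reach. Myh3, Myh8 and Mylpf lay below it. Acta1 had the highest mean level of the 7, 8.59, and the median of all rows was 8.71.

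None of the 7 genes differed between knockout and control at an adjusted p under 0.05 in limma, where 0.359% of all 23410 tested rows did (0.00854% higher and 0.35% lower in knockout). None passed in the t-test of the study's methods after adjustment, where 0.12% of all rows did. That t-test was run on the deposited values, without the study's normalization to mature OSN mRNAs. At an unadjusted p under 0.05, 2 of the 7 passed (Myh8 and Ckm), against 6.1% of all rows, and 1 passed in that t-test, against 7.08% of all rows. All 7 differences were above 0, as were 51.6% of all rows. Their median was 0.10, and the median of all rows was 0.0041. Lists of other cell types, none with a gene past the adjusted threshold, moved beside them. Differences were above 0 in 13 of 13 skin and oral epithelium genes (median 0.59) and in 10 of 10 genes of respiratory ciliated cells (median 0.23). They were above 0 in 2 of 18 mature OSN genes (median -0.12) and in 1 of 15 immature OSN genes (median -0.14). The part of these cell types in the muscle gene differences was not tested. In whole mucosa, fewer cells of a type and less RNA per cell cannot be told apart.

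**Figure D1:**
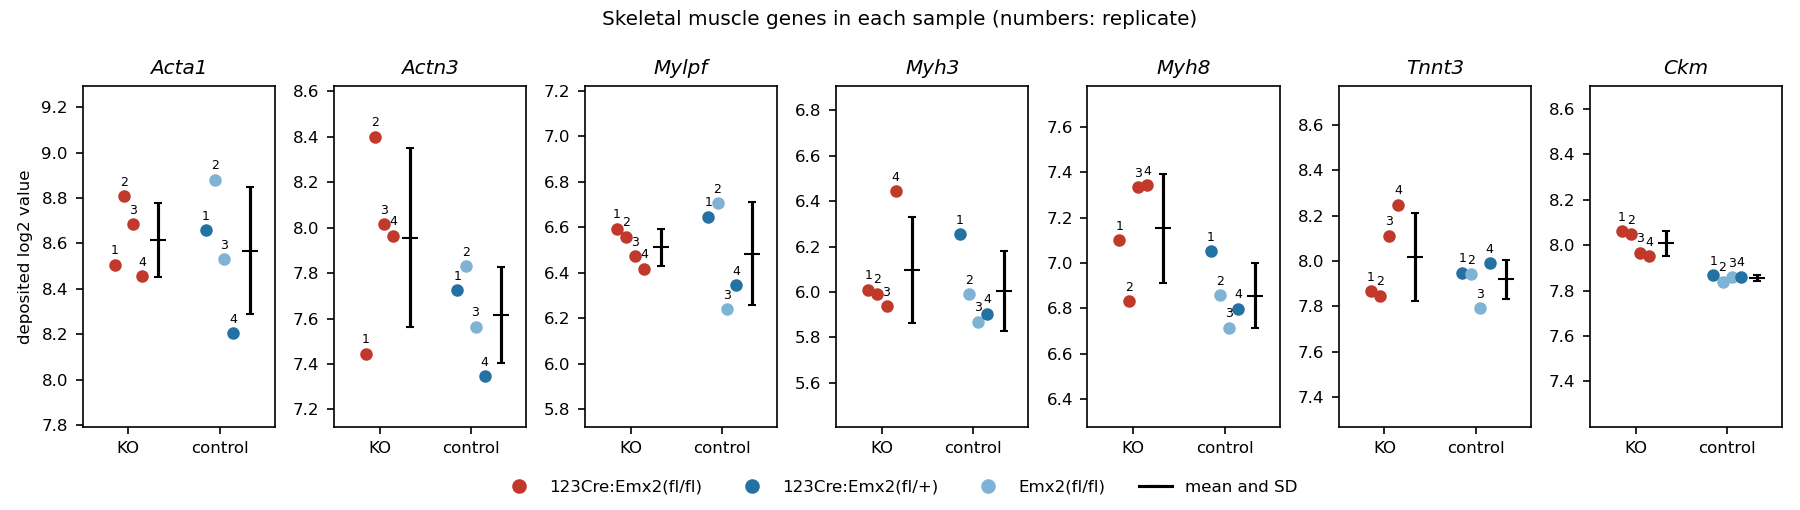
Log2 level (vertical axis) of each of the 7 skeletal muscle genes in the 4 knockout and the 4 control arrays, 1 panel a gene. Points are arrays and bars are group means with SD. Ckm is the gene whose groups do not overlap, with 7.95 to 8.06 in knockout and 7.84 to 7.87 in control samples.

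Myh3, the embryonic heavy chain, had levels of 6.01, 5.99, 5.94 and 6.44 in knockout replicates 1 to 4 and 6.25, 5.99, 5.87 and 5.90 in control replicates 1 to 4. Knockout replicate 4 was high, and the groups overlapped. The difference in Myh3 was 0.09 (SE 0.133, 95% interval -0.21 to 0.39, adjusted p = 1.00 by limma), and without knockout replicate 4 it was -0.02.

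Myh8, the perinatal heavy chain, had levels of 7.10, 6.83, 7.33 and 7.34 in knockout samples and 7.05, 6.86, 6.72 and 6.80 in control samples. Knockout replicates 3 and 4 were highest, while knockout replicate 2 lay inside the control range. The difference in Myh8 was 0.30 (SE 0.128, 95% interval 0.00 to 0.59). Its unadjusted p was 0.0471 and its adjusted p 0.817 in limma.

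Tnnt3, fast skeletal troponin T of the thin filament, had levels of 7.87, 7.85, 8.11 and 8.25 in knockout samples and 7.95, 7.94, 7.79 and 7.99 in control samples. Knockout replicates 3 and 4 were again highest, and knockout replicates 1 and 2 lay below 3 of the 4 controls. The difference in Tnnt3 was 0.10 (SE 0.104, 95% interval -0.14 to 0.34, adjusted p = 1.00 by limma). It was 0.02 without knockout replicate 4, 0.16 without knockout replicate 2 and 0.24 with array weights.

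Acta1, the skeletal alpha-actin that builds the thin filament, had levels of 8.51, 8.81, 8.68 and 8.45 in knockout samples and 8.66, 8.88, 8.53 and 8.21 in control samples. Control replicate 2 was highest and control replicate 4 lowest, so that the controls enclosed every knockout value. The difference in Acta1 was 0.04 (SE 0.145, 95% interval -0.28 to 0.37, adjusted p = 1.00 by limma). It was -0.08 without control replicate 4 and -0.02 without knockout replicate 2.

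Mylpf, the fast regulatory light chain of myosin, had levels of 6.59, 6.56, 6.47 and 6.42 in knockout samples and 6.65, 6.70, 6.24 and 6.35 in control samples. Here too the controls enclosed the knockouts, with control replicates 1 and 2 high and control replicates 3 and 4 low. The difference in Mylpf was 0.03 (SE 0.113, 95% interval -0.23 to 0.28, adjusted p = 1.00 by limma), and it was -0.05 to 0.10 as each sample was left out.

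Actn3, the alpha-actinin of the Z-disc in fast fibres, had levels of 7.44, 8.40, 8.02 and 7.97 in knockout samples and 7.72, 7.83, 7.56 and 7.35 in control samples. Knockout replicate 2 was highest, and knockout replicate 1 lay below 3 of the 4 controls. The difference in Actn3 was 0.34 (SE 0.192, 95% interval -0.09 to 0.78, adjusted p = 0.899 by limma). It was 0.19 without knockout replicate 2 and 0.51 without knockout replicate 1. Its range over the 8 arrays, 1.05, was the widest of the 7 genes.

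Ckm, the muscle creatine kinase that regenerates ATP, had levels of 8.06, 8.05, 7.97 and 7.95 in knockout samples and 7.87, 7.84, 7.86 and 7.86 in control samples. Every knockout value was above every control value, as in 1.98% of all rows, while the reverse held in 2.54%. The difference in Ckm was 0.15 (SE 0.0602, 95% interval 0.01 to 0.29, unadjusted p = 0.0339, adjusted p = 0.782 by limma). Its range of 0.22 over the arrays was the narrowest of the 7.

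The 4 array numbers 1 to 4 and the 4 array numbers 5 to 8, taken from the sample titles, each held 2 knockout and 2 control samples. Within arrays 1 to 4, 3 of 7 genes had a difference above 0 (52.9% of all rows), and within arrays 5 to 8, 7 of 7 did (48.9% of all rows). Myh8 differed by 0.01 within arrays 1 to 4 and by 0.58 within arrays 5 to 8. Tnnt3 differed by -0.09 and 0.29, Myh3 by -0.12 and 0.30, Acta1 by -0.11 and 0.20, and Mylpf by -0.10 and 0.15, in that order of arrays. Actn3 differed by 0.15 and 0.54, and Ckm by 0.20 and 0.10. The interaction of group and array order, a fit added after the data had been seen, called none of the 7 genes in limma (adjusted p = 0.939 for each) and 0.0% of all tested rows. The limma fit gave unadjusted p-values under 0.05 for the interaction in 2 of the 7, Myh8 and Tnnt3, and in 2.76% of all rows.

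The controls were then split by genotype. In a limma fit with 3 genotypes, none of the 7 passed in any contrast, where 0.179% of rows passed between knockout and 123Cre:Emx2(fl/+), 0.137% between knockout and Emx2(fl/fl) and 0.0% between the control genotypes. Acta1 differed by 0.18 between knockout and 123Cre:Emx2(fl/+) and by -0.09 between knockout and Emx2(fl/fl). Myh8 differed by 0.23 and 0.37 in the same contrasts, and Actn3 by 0.42 and 0.26.

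**Figure D2:**
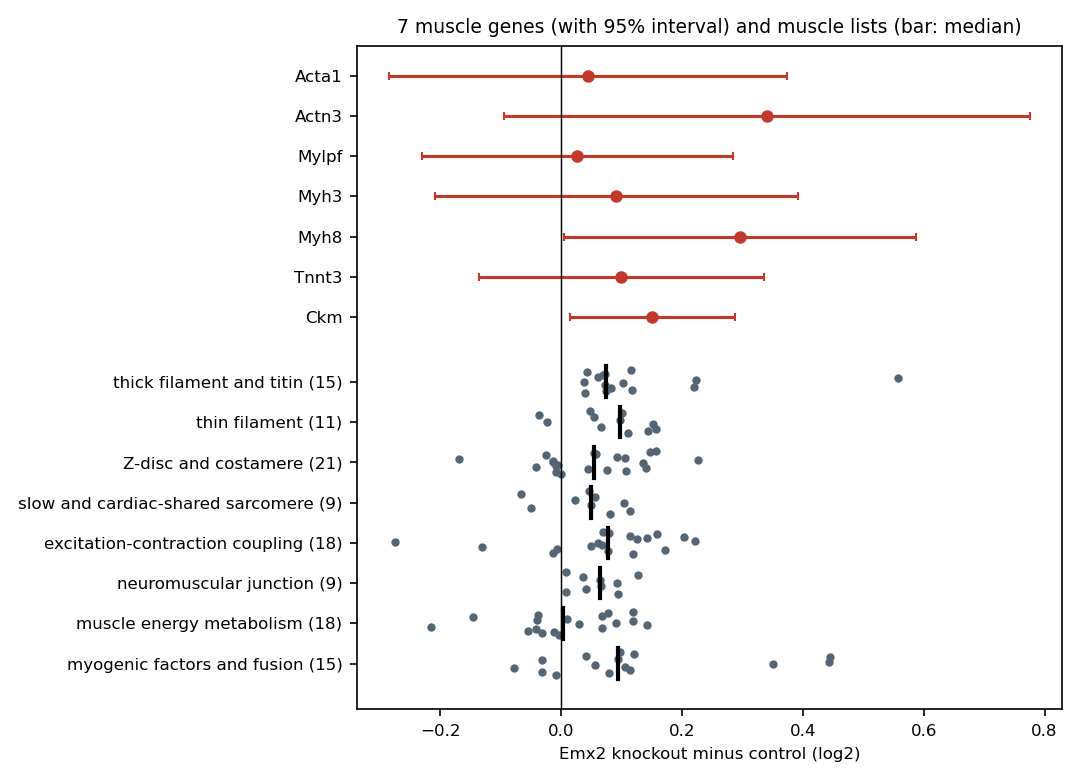
Knockout minus control difference (horizontal axis, log2) of the 7 skeletal muscle genes with 95% intervals from limma, above the differences of other muscle genes by list (points are genes, bars list medians). All 7 lie above 0, and all but the Myh8 and Ckm intervals cross it.

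The 7 genes differed in which arrays were high and low. Over the 21 pairs, Pearson's r across the 8 arrays, which all pairs share, had a median of 0.23 and ran from -0.22 (Acta1 and Tnnt3) to 0.80 (Myh8 and Tnnt3). Only 5 pairs were above 0.6. Myh3, Myh8 and Tnnt3 made 3 of these, with r = 0.63 for Myh3 and Tnnt3 and r = 0.61 for Myh3 and Myh8. Acta1 made the others, with r = 0.68 for Actn3 and r = 0.67 for Mylpf. The median depended on scaling and on single arrays. It was 0.58 with arrays centred on mature OSN genes, 0.39 after quantile normalization, 0.09 without control replicate 3 and 0.10 without control replicate 4. Centring subtracts 1 value per array from every row, and pairwise r of other rows was not computed.

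**Figure D3:**
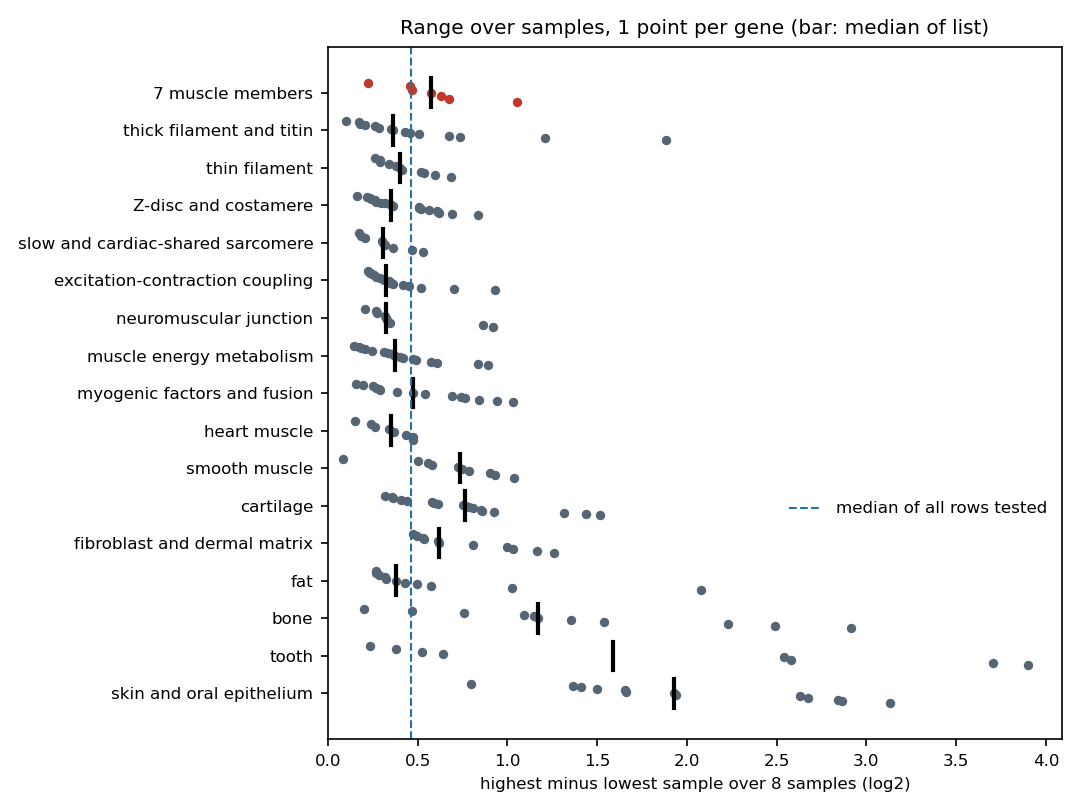
Range of each gene over the 8 arrays (log2) for the 7 skeletal muscle genes, other muscle lists and lists of tissues around the nasal cavity. Points are genes and bars are list medians. The median was 0.58 for the 7 genes, 0.35 for all other muscle lists, 1.17 for bone, 1.59 for tooth and 1.93 for skin and oral epithelium. The 7 genes were chosen by their levels across these samples, so their range beside other muscle genes is a description and not a result.

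Other genes of the sarcomere and muscle fibre were taken from 8 lists, whose genes were chosen with these data known. They held 119 genes, of which 115 were measured. None passed at an adjusted p under 0.05, 86 had differences above 0 and their median difference was 0.07. At an unadjusted p under 0.05, 6 were higher in knockout (3.04% of all rows) and 0 lower (3.06% of all rows). By list, the number above 0 was 15 of 15 for the thick filament and titin, 9 of 11 for the thin filament, 12 of 21 for the Z-disc, 7 of 9 for slow and cardiac-shared sarcomere genes, 14 of 18 for excitation-contraction coupling, 9 of 9 for the neuromuscular junction, 9 of 18 for energy metabolism and 11 of 15 for myogenic factors. Many of these rows were dim. Of the 115, 53 lay above the dimmest 30% of rows, with 5 of 15 for the thick filament and titin and 2 of 9 for the neuromuscular junction. Several lists of other tissues also had most differences above 0, with 8 of 8 for heart muscle, 10 of 11 for bone, 9 of 11 for fat and 13 of 18 for cartilage. The skin and ciliated cell lists did so too. Of the 8 heart muscle genes, 2 lay above the dimmest 30% of rows. Counts above 0 were 6 of 10 for smooth muscle and 6 of 11 for fibroblast and dermal matrix. They were 3 of 8 for tooth, 2 of 10 for olfactory bulb and brain and 1 of 4 for erythroid cells. The direction was thus not particular to skeletal muscle genes, and not common to all tissues.

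Myl1, a fast myosin light chain, had the widest range of these genes, 1.88. Its levels were 7.66, 7.53, 9.12 and 9.17 in knockout samples and 8.37, 7.83, 7.76 and 7.28 in control samples. Knockout replicates 3 and 4 were the high ones, as for Myh8 and Tnnt3, and r across the 8 arrays was 0.88 with Myh8 and 0.80 with Tnnt3. Its difference was 0.56 (adjusted p = 0.979 by limma). Myl4, an embryonic and atrial light chain, had 9.27, 10.01, 9.20 and 9.19 in knockout samples and 9.42, 9.51, 9.04 and 8.80 in control samples, with r = 0.81 with Acta1. Mybpc1, slow myosin-binding protein C, had r = 0.82 with Tnnt3, whereas Mybpc2, the fast form with a wider range of 0.74, had r = -0.24. The 115 muscle-list genes were then sorted by r with each of the 7. Of the 115, 13 had r above 0.6 with Myh8 and 54 had r below 0, 13 were above 0.6 with Tnnt3 and 57 below 0, and 13 were above 0.6 with Acta1 and 48 below 0. With Ckm, 24 were above 0.6 and 26 below 0, and with Actn3, 18 were above 0.6 and 28 below 0. With Mylpf these counts were 6 and 45, and with Myh3 they were 5 and 57. Shares over all rows were not counted, so these counts do not set muscle genes apart from other rows. Of the 115, only 53 lay above the dimmest 30% of rows.

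Among relatives of the 7 genes, Myh1 ranged over 0.43, Myh2 over 0.10 and Myh4 over 0.18. Their mean levels, 5.99, 6.63 and 6.07, lay among the dimmest 30% of rows, which ended at 7.47. A narrow range at such levels may reflect little signal. Myh1, Myh2 and Myh4 are heavy chains of adult fast fibres, and Myh7, the slow heavy chain, ranged over 0.31. Tnnt1 and Tnnt2, the slow and cardiac troponin T genes, ranged over 0.18 and 0.32. Actn2, the other sarcomeric alpha-actinin, had r = 0.93 with the mean of the 7 genes across the 8 arrays and a difference of 0.16 (adjusted p = 0.817 by limma), and Actc1, cardiac actin, had r = 0.89 and a difference of 0.11. Chosen after their values were seen, Myf6 differed by 0.45 (adjusted p = 0.514), Pax7 by 0.44 (adjusted p = 0.703) and Pax3 by 0.35 (adjusted p = 0.712) in limma. Myf6 encodes a myogenic factor, and Pax3 and Pax7 encode factors of muscle progenitors.

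Bone, tooth and skin genes had wider ranges over the arrays than the 7 genes, with no test of that difference. Amelx, an enamel matrix gene of the tooth list, ranged over 3.90 across the arrays, Krt1, a keratin of the skin list, over 3.13 and Ibsp, bone sialoprotein, over 2.49. Averaged over its genes, the bone list read 8.93, 8.97, 9.63 and 9.38 in knockout samples and 9.99, 8.76, 8.73 and 9.04 in control samples. The tooth list read 6.72, 6.51, 6.54 and 6.54 in knockout samples and 7.95, 6.91, 6.25 and 6.31 in control samples. Control replicate 1 was thus highest in both, yet it was highest in none of the 7 muscle genes.

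The skin and oral epithelium list read 9.02, 8.93, 8.27 and 7.63 in knockout samples and 7.72, 7.88, 7.61 and 7.86 in control samples. Knockout replicates 1 and 2 were high, and Ckm, which was also highest there, had r = 0.88 with this list across the 8 arrays. It had about the same r with myogenic factors (0.87), heart muscle (0.86) and respiratory ciliated cells (0.80), so the likeness was not particular to skin. The part of these lists in the Ckm difference was not tested. The mean of the 7 genes read 7.37, 7.50, 7.50 and 7.55 in knockout samples and 7.45, 7.43, 7.22 and 7.21 in control samples. Its r across the 8 arrays, shared by all lists, was 0.91 with the thick filament and titin list and 0.76 with all other muscle-list genes together. Among single muscle lists it was 0.55 with myogenic factors, 0.54 with the thin filament, 0.51 with the Z-disc, 0.49 with slow and cardiac-shared sarcomere genes, 0.41 with excitation-contraction coupling, 0.40 with the neuromuscular junction and 0.27 with energy metabolism. It was 0.49 with bone, 0.34 with tooth, 0.21 with skin, 0.10 with cartilage, 0.55 with fat and -0.71 with mature OSN genes. Other lists gave 0.49 for fibroblast and dermal matrix, 0.43 for respiratory ciliated cells, 0.20 for heart muscle and -0.46 for immature OSN genes. The difference between the groups enters all of these r values.

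**Figure D4:**
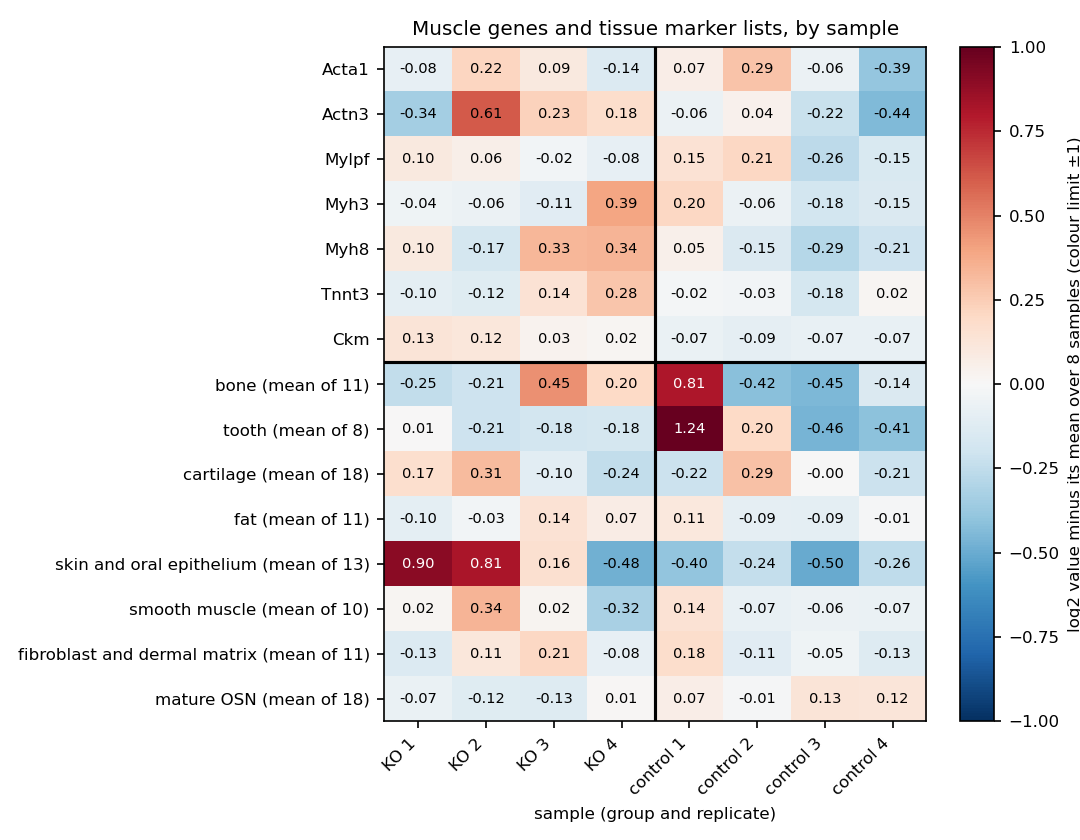
Each row is 1 of the 7 genes or the mean of 1 tissue list, each column 1 array, knockout arrays left of control arrays, and colour the log2 deviation from the row's mean over the 8 arrays. Control replicate 1 is highest in tooth and bone and in none of the 7 genes, and knockout replicates 1 and 2 are highest in skin and in Ckm.

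Single genes ran with different tissue lists. Myh8 had r = 0.64 with bone and 0.70 with fat, and Tnnt3 had 0.70 with fat, -0.60 with cartilage and -0.61 with smooth muscle. Acta1 had r = 0.66 with cartilage, and Mylpf had 0.69 with tooth. Neuronal lists gave values as far from 0, with -0.78 for Ckm and -0.74 for Myh8 with immature OSN genes. With mature OSN genes, Ckm had r = -0.77. All of these rest on the same 8 arrays. Smooth muscle, which uses Acta2 in place of Acta1, read 9.15, 9.46, 9.15 and 8.81 in knockout samples and 9.27, 9.06, 9.06 and 9.06 in control samples, and Acta2 itself had r = 0.39 with Acta1.

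Over the 9679 rows with a range of at least 0.5, the rows most like the mean of the 7 genes were picked by r. That limit on range leaves out muscle genes of narrower range, such as Actn2 (r = 0.93, range 0.26) and Ttn, the titin gene, chosen after its values were seen (r = 0.79, range 0.46). The 12 closest were Ptprv (r = 0.90), Mael, Sftpc, Folh1, Tac1, Lcn4, Lrrc15, Gabrr1, Chrm3, Gpx3, Cd44 and Wfdc18 (r = 0.81), with 0 of the 12 in the muscle lists. They include a surfactant protein (Sftpc), a neuropeptide precursor (Tac1) and the hyaluronan receptor Cd44. The 8 most opposite were Vmn1r178 (r = -0.92), Vmn1r226, Olfr992, Olfr787, Vmn1r180, Olfr319, Olfr1247 and Vmn1r64 (r = -0.87), all of them vomeronasal or odorant receptor genes. The share of such receptors among the 9679 rows was not counted. Most of the 8 lay among the dimmest 30% of rows, which ended at 7.47. For example, Vmn1r226 read 4.70 to 5.75 and Olfr787 4.79 to 5.85 over the samples. Olfr319 had the highest levels of the 8, 7.43 to 7.98. Of the 12 closest, Mael, Folh1, Tac1 and Lcn4 were as dim. The part of low signal in these r values was not tested. All 8 opposite rows were lower in knockout, with differences of -0.59 to -0.27, and all 12 closest rows were higher, with 0.17 to 0.47. The difference between the groups thus enters these r values. Of 35 muscle-list rows with that range, 1 had r above 0.7 (Smpx, 0.76).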

How the data were processed

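Total RNA from each sample was made into biotinylated cRNA and read on 1 array. The authors deposited log2 values per transcript cluster, which combine the probe sets of a gene. The submitters' notes name Affymetrix Expression Console, and for its version, its normalization and the genome build the sources used here give nothing. Values ran from 2.78 to 14.78. Of 35557 rows, 21789 had 1 gene symbol in the platform annotation, 1621 had several and 12147 had none. The 23410 rows with a symbol were fitted with limma 3.58.1 in R 4.3.3, knockout against control with no covariate, two-sided, with Benjamini-Hochberg adjustment over all of them and a threshold of 0.05. The labels give no litter, sex or batch, so a p-value reflects no more than the spread among the 8 samples, which may be technical. No 2 arrays held the same values (root mean square difference at least 0.248).

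The 7 genes and the gene lists were chosen with earlier results of these data known. Where a listed gene had several rows, the row with the highest overall mean stood for it. Genes named were the 7, Emx2, up to 4 genes of a list with the widest range, their paralogs, and the 12 rows most like and 8 most unlike the mean of the 7; others are named as chosen after their values were seen. Correlations are descriptions with no p. Motifs were counted in the 250 bases before each start in the RefSeq promoter table. The fits were repeated with quantile normalization, with other centring and filters, by the t-test of the methods, with robust fitting, array weights or array order as a block, and with each control genotype alone and each sample left out. The limma fit was also run on simulated data with independent noise in each row, and its outcome is not given here. Those data held no effect shared by the rows of an array, so that run cannot speak to such effects.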

Additional observations from a re-analysis of the deposited data

Results flagged for a closer look

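A sample far from the rest of its group was found in 5 of 58 groups of 4 samples examined (7 genes and the list means, each in both groups). Chance flags about 1 in 20. Myh3 was 6.44 in knockout replicate 4, against 5.94 to 6.01 in the other knockouts. The mean of slow and cardiac-shared sarcomere genes was 8.17 in knockout replicate 2, against 8.03 to 8.05 in the other knockouts. The mean of neuromuscular junction genes was 7.38 in control replicate 2, against 7.21 to 7.23 in the other controls. The mean of smooth muscle genes was 9.27 in control replicate 1, against 9.06 in each other control. The mean of tooth genes was 6.72 in knockout replicate 1, against 6.51 to 6.54 in the other knockouts. No other member of the 7 genes was far out in either group.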

How the results depend on the processing

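The number of the 7 genes past the threshold was 0 in each of 19 alternative fits, with a lowest adjusted p of 0.0897 (Myh8, array weights, limma). Directions turned for 9 of 130 alternative differences of these genes. Acta1 was -0.0060 with array weights and -0.0920 against Emx2(fl/fl) controls alone, and ran from -0.0764 to 0.15 as samples were left out. Mylpf was -0.0088 after quantile normalization and ran from -0.0547 to 0.10, with values below 0 without knockout replicate 1, control replicate 3 or control replicate 4. Myh3 ran from -0.0245 (without knockout replicate 4) to 0.18. Within arrays 1 to 4, Acta1 was -0.11, Myh3 -0.12, Tnnt3 -0.0879 and Mylpf -0.10. Leaving out samples gave 0.23 to 0.40 for Myh8, 0.02 to 0.16 for Tnnt3, 0.13 to 0.17 for Ckm and 0.19 to 0.51 for Actn3. The median difference of the 7 was 0.26 with arrays centred on mature OSN genes, where the median of all rows was 0.16, and 0.21 with array weights. It ran from 0.06 to 0.15 as samples were left out. At an unadjusted p under 0.05 in limma, 4 of the 7 passed with that centring and 3 with array weights. Shares of all rows at that p were not counted in these 2 settings, so the 2 counts are not a result about the 7 genes. The count of all rows past the threshold was 84, and was 28 in the methods' t-test, 27 without the dimmest 30% of rows, 224 with array weights, 32 with 123Cre:Emx2(fl/+) controls only and 25 with Emx2(fl/fl) controls only. It was 46 to 132 as samples were left out. Array order as a block changed no call of the 7 genes. No paired analysis was possible because the labels give no replicate numbers that the groups share. Values near background have no detection p here, and 3 of the 7 genes lay among the dimmest 30% of rows.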
